A study of Mus musculus with 8 samples.

Results

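Replication-dependent histone genes were read in B-cell-biased lymphoid progenitors of mice that lack or carry H2afy, the gene of the histone variant macroH2A1. The members were all genes whose symbol in GENCODE M1, the annotation of the mouse NCBIM37 assembly (the same as mm9), starts with Hist1h, Hist2h, Hist3h or Hist4h. There were 70 of them among 37991 genes of the count table: 6 of type H1, 20 of H2A, 19 of H2B, 12 of H3 and 13 of H4. Of these, 27 passed the filter on low counts and entered the test, among 13722 genes tested in all.

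H2afy_KO held 4 pools from H2afy-/- mice, and H2afy_WT held 4 pools from H2afy+/+ mice. Mice were 5 to 12 weeks old, and each pool held RNA of 5000 to 15000 cells from 2 to 3 mice, sorted by flow cytometry after enrichment of Kit-positive bone marrow cells. The sources used here do not say which part of H2afy the allele lacks, in which cells it is deleted or whether pools share mice, and p-values therefore cover only how these pools vary, which may be technical. H2afy itself had 1659 ± 238 CPM over the H2afy_KO pools and 2267 ± 288 CPM over the H2afy_WT pools (SD, n = 4 each). Because the deleted exons are unknown, this gene-wide count is no check of the genotypes.

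The core histones H2A, H2B, H3 and H4 form the nucleosome, and the linker histone H1 binds the DNA that enters and leaves it. Their replication-dependent genes lie in clusters and are switched on in S phase, when new chromatin is packed. Most of their mRNAs have no poly(A) tail and end just after a short stem-loop in the 3′ untranslated region, which the protein Slbp binds. Some of these genes also give polyadenylated transcripts that run past the stem-loop, mainly in cells that have stopped dividing. The labels name a low-input cDNA kit but not its primer. Kits of this kind usually prime from poly(A), and if that holds here, the levels below leave out much of the histone mRNA that has no tail.

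The 16 bases of the stem-loop are shown first, because they set the cluster genes apart from other genes and mark where the usual transcript ends. A match to the histone stem-loop consensus was searched on the gene's strand, within 300 bases after the stop codon and then in the rest of the gene's span, and 66 of the 70 members held one. In the 300-base window alone, 61 members held a match, as did 4 of 22313 other protein-coding genes (0.0179%), among them H2afx, a histone gene outside the clusters. All 13 H4 members had a stem that starts with GGCC or GGTC, whereas the 6 H1, 17 H2A, 18 H2B and 12 H3 members with a match had one that starts with GGCT. The sequences of 8 members that the results below return to follow 5′ to 3′, with the stem-loop in capitals and 5 flanking bases on each side. They were read from NCBIM37.
Hist1h1b (chr13:21871701-21871726, minus strand): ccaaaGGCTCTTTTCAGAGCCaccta
Hist1h1a (chr13:23856256-23856281, plus strand): ccaacGGCTCTTTTCAGAGCCaccaa
Hist1h1c (chr13:23831376-23831401, plus strand): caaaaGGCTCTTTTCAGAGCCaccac
Hist3h2a (chr11:58768669-58768694, plus strand): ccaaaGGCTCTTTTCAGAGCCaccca
Hist1h2bg (chr13:23663707-23663732, plus strand): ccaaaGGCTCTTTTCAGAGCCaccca
Hist1h3d (chr13:23668108-23668133, plus strand): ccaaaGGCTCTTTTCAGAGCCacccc
Hist1h4d (chr13:23673814-23673839, plus strand): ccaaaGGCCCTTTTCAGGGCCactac
Hist2h4 (chr3:96066857-96066882, minus strand): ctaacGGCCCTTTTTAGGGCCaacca
The stem-loop of Hist1h2bg is the same 26 bases as that of Hist3h2a. Other members share these bases as well, among them Hist1h2bc, Hist1h2be, Hist1h2bn and Hist1h3b. Hist2h2be, a well-expressed H2B gene, held no match in its annotated span, which says only that these letters are not there.

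The annotated gene ended at different distances from the stem-loop. It ran 839 genomic bases past it in Hist1h1c, 1487 in Hist3h2a, 1235 in Hist2h4 and 752 in Hist1h3d. It ended 7 bases past it in Hist1h1a and 25 in Hist1h4d, and 46 bases before its end in Hist1h1b. Of the 27 tested members, 14 were annotated at least 100 bases past the stem-loop, and of the 43 members that were not tested, 9 were. The GENCODE M1 annotation of 16 members, 3 of them tested, ended before the stem-loop did. The annotation used for counting was not given, and if it had the same ends, reads beyond them were not counted.

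Together the 70 genes gave 2958 to 5257 counts per pool, out of 21330088 to 29029765 gene counts, which is 0.0124% to 0.0198%. CPM are read counts scaled to a common library size with TMM factors. The summed level of the family was 152, 130, 179 and 191 CPM in H2afy_KO pools 1 to 4, against 178, 135, 128 and 172 CPM in H2afy_WT pools 1 to 4. The genotypes overlapped, with means of 163 ± 27.8 CPM and 153 ± 25.5 CPM (SD, n = 4 each). For scale, the S phase list (33 genes of DNA replication) summed to 6155 to 8786 CPM in H2afy_KO pools and 7372 to 9290 CPM in H2afy_WT pools. The geometric mean of its genes was 108 to 150 CPM in these pools, which lies below their arithmetic mean.

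The counts were spread very unevenly over the family. The 3 members with the most counts, Hist1h1b, Hist2h2be and Hist1h1a, held 43.0% of them and the top 10 held 77.4%. The 43 members that were not tested held 2.78%, and none of them averaged above 0.327 CPM. Hist2h2aa1, Hist2h2aa2 and Hist2h3b had 0 counts in every pool, where a count of 0 allows up to 3 counts in a pool, or 0.0952 to 0.182 CPM. That limit does not cover reads that match several places in the genome and may have been left out of the counts. The testis histone genes Hist1h1t, Hist1h2aa and Hist1h2ba had 19, 1 and 2 counts over all 8 pools.

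Whether a read of 50 bases can be placed on one copy differed as much as the counts. Each 50-base window of a member's exons was looked up on both strands of the genome, and its share of windows found once is its uniqueness. The median uniqueness was 67.7% in the 27 tested members and 32.9% in the 43 others. In 6 members, among them Hist2h2aa1, Hist2h2aa2 and the pair Hist1h2ao and Hist1h2ap, no window was unique. A window could recur in up to 19 places for H2A and 15 for H2B. Under 50% of windows were unique in 3 tested members, Hist1h3e (26.6%), Hist1h2bj (37.0%) and Hist1h2bc (49.2%), and in 30 of the members that were not tested. The counter and its handling of reads with several hits were not given in the sources used here. Levels of members with low uniqueness are therefore uncertain, and the part of uniqueness in the low counts was not tested.

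**Figure D1:**
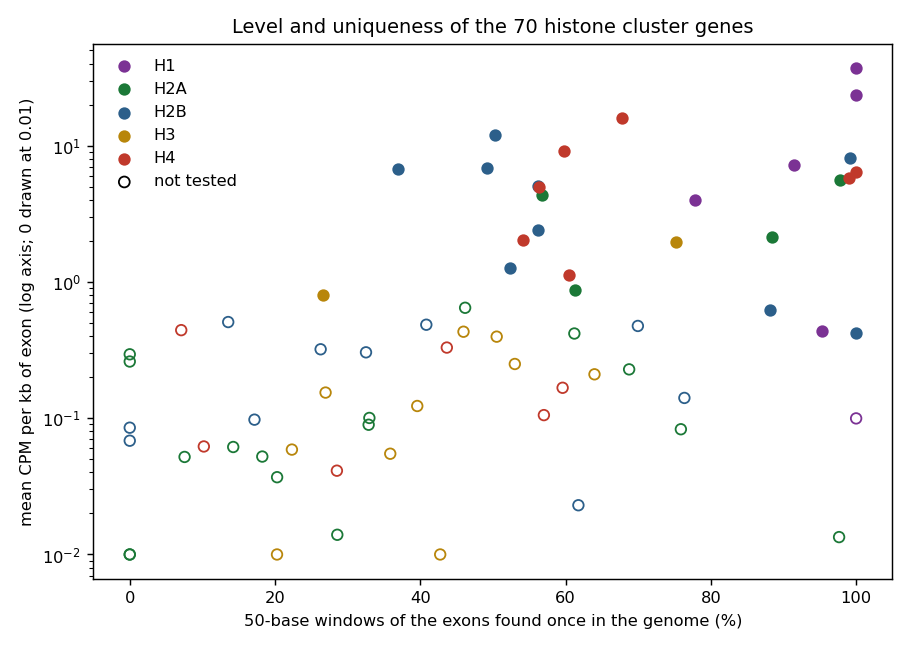
Mean CPM per kilobase of exon over the 8 pools (vertical log axis, genes at or under 0.01 drawn at 0.01) against the percentage of 50-base exon windows found once in the genome, for the 70 histone cluster genes coloured by histone type. Filled points are the 27 tested members and open points the 43 others. The H1 genes Hist1h1b and Hist1h1a stand highest at 37.0 and 23.6 CPM per kilobase with every window unique.

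Per length of exon, the order of levels was led by H1 and H4 genes. Hist1h1b averaged 37.0 CPM per kilobase and Hist1h1a 23.6, followed by Hist1h4d at 16.1, Hist1h2bg at 12.0, Hist1h4i at 9.08 and Hist2h2be at 8.14. The H3 genes were low, with Hist1h3d at 1.96 and Hist1h3e at 0.798 CPM per kilobase. The median uniqueness was 97.7% for H1, 57.0% for H4, 50.3% for H2B, 41.2% for H3 and 32.9% for H2A members. Its part in the order of levels and in the shares of the types was not tested. The exon length is the one annotated in GENCODE M1, such as 743 bases in Hist1h1b and 3821 in Hist1h1d. The annotation used for counting was not given, so the counted length may differ. Among histone genes outside the clusters, most of whose mRNAs are polyadenylated, H2afz (the variant H2A.Z) was at 355 and H3f3b (the variant H3.3) at 341 CPM per kilobase, above every cluster gene, as were H2afv at 70.7 and H3f3a at 50.2. The other listed ones lay below Hist1h1b, with Cenpa at 18.6, H2afx at 8.13, H2afj at 6.61, H1f0 at 2.37, H2afy2 at 0.459 and H1fx at 0.0756 CPM per kilobase.

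In the comparison of genotypes, 0 of the 27 tested members passed in either direction (edgeR quasi-likelihood test, Benjamini-Hochberg adjusted p over 13722 genes, smallest adjusted p of a member 0.676). Over all tested genes 0 passed as well, a background of 0%. At an unadjusted p under 0.05 the fit gave 0 of 27 members against 7.58% of all tested genes (3.88% higher and 3.69% lower), and the genotypes did not overlap in 0 of 27 members against 4.53% of all tested genes. DESeq2, in which 0.876% of genes passed, called 0 members (smallest DESeq2 adjusted p 0.389) and gave 1 of them, Hist1h1c, an unadjusted p of 0.0236 in its model over all genes. With the replicate number as a block, in which 0.109% of genes passed, edgeR called 0 members and gave 0 an unadjusted p under 0.05. For DESeq2 and the block fit, the share of all genes under that unadjusted p is not given here. These unadjusted counts of members therefore have no background to be read against. The log2 fold change of H2afy_KO over H2afy_WT was positive in 18 of 27 members (66.7%) against 50.1% of all tested genes, and its median was 0.14 against 0.00. Over the 67 members with any count it was 0.039 both in DESeq2 and in edgeR with no filter, and over the 9 members with at least 5 CPM in 4 pools it was 0.013.

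That median did not keep its sign. It was -0.12 without H2afy_KO 3 and 4, the pools richest in immunoglobulin counts, and -0.05 with the immunoglobulin share added to the model. Members are lowly counted, with a median of 2.97 CPM against 17.5 CPM over all tested genes. The median SE of their log2 fold changes was 0.40 against 0.23, and in 12 of the 27 the whole 95% interval lay between -1 and 1. Of the tested members 21 lie on chromosome 13, between positions 21813913 and 23856283 and 32.3 megabases from H2afy, which is on the same chromosome (56174980 to 56237722, minus strand). Their median log2 fold change was 0.14, and that of the 6 on other chromosomes was 0.20.

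**Figure D2:**
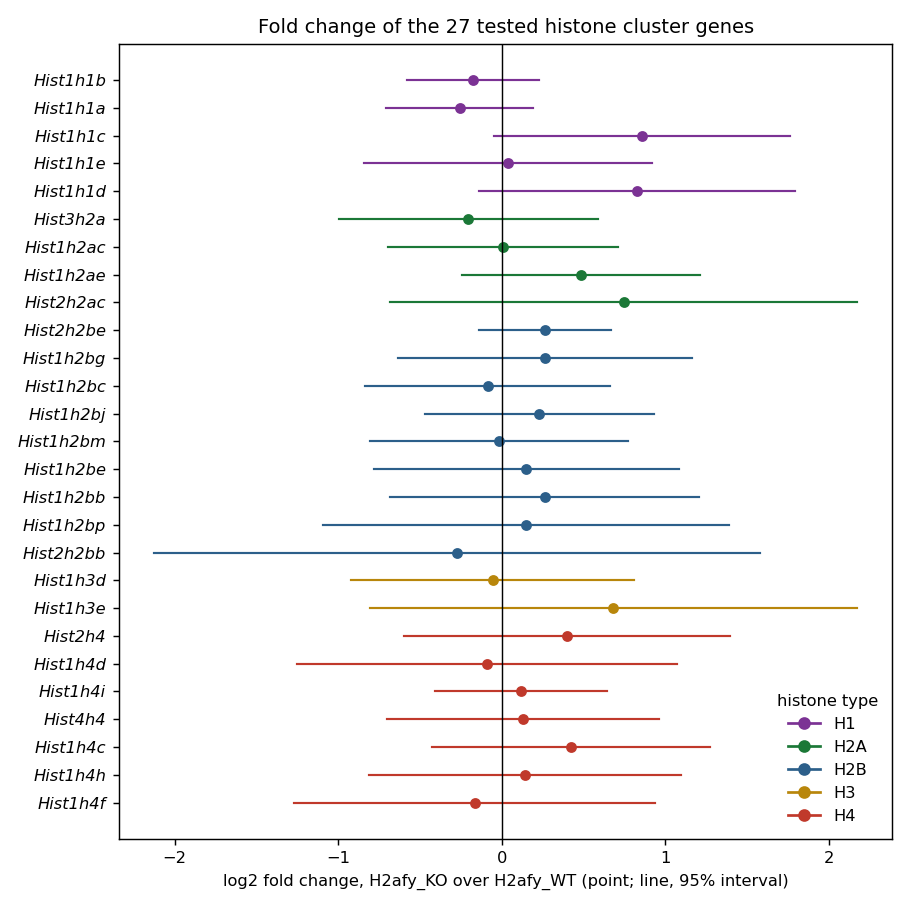
Log2 fold change of H2afy_KO over H2afy_WT (horizontal axis, point) with its 95% interval (line) from the edgeR fit, for the 27 tested histone cluster genes coloured by histone type. Every interval includes 0, the bounds run from -2.13 to 2.17, and 18 of the 27 points lie above 0.

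Linker histone H1 genes held 39.0% of the family's counts. Hist1h1b (ENSMUSG00000058773, histone H1.5) stood at 31.5, 23.8, 24.4 and 23.5 CPM in H2afy_KO pools 1 to 4, against 32.0, 23.0, 24.9 and 36.7 CPM in H2afy_WT pools 1 to 4. The genotypes overlapped, with a log2 fold change of -0.18 (SE 0.18, 95% interval -0.58 to 0.23). Hist1h1a (ENSMUSG00000049539, histone H1.1) stood at 21.2, 16.7, 12.4 and 14.1 CPM in H2afy_KO pools 1 to 4, against 23.8, 19.9, 16.9 and 16.4 CPM in H2afy_WT pools 1 to 4. Its values overlapped between genotypes, H2afy_KO was lower in all 4 same-numbered pairs, and H2afy_KO 3 and 4 were the lowest of the 8 pools (log2 fold change -0.26, SE 0.20, adjusted p = 0.806 from edgeR). It was the 1 member of 27 that differed one way in all 4 pairs, against 21.02% of all tested genes.

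Hist1h1c (ENSMUSG00000036181, histone H1.2) had its highest levels in those same pools. It stood at 6.38, 9.35, 22.9 and 19.95 CPM in H2afy_KO pools 1 to 4, against 10.0, 6.19, 5.57 and 10.4 CPM in H2afy_WT pools 1 to 4. Only H2afy_KO 3 and 4 stood above the H2afy_WT pools. Its log2 fold change of 0.86 (SE 0.41, 95% interval -0.05 to 1.77) did not pass (edgeR adjusted p = 0.676) and was -0.03 without those pools. Hist1h1e (H1.4) averaged 3.01 ± 0.823 CPM over the H2afy_KO pools and 2.92 ± 1.40 CPM over the H2afy_WT pools (SD, n = 4 each), and Hist1h1d (H1.3) averaged 2.15 ± 1.23 and 1.21 ± 0.173 CPM in the same order, with a log2 fold change of 0.83 (SE 0.44). Summed over the type, H1 had 61.7 ± 6.07 CPM over the H2afy_KO pools and 60.7 ± 10.9 CPM over the H2afy_WT pools (SD, n = 4 each).

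H2A genes held 13.3% of the family's counts, and 4 of the 20 were tested. Hist3h2a stood at 6.44, 6.13, 12.7 and 16.1 CPM in H2afy_KO pools 1 to 4, against 11.8, 10.2, 7.83 and 17.8 CPM in H2afy_WT pools 1 to 4. The genotypes overlapped (log2 fold change -0.20, SE 0.36), and 35.6% of its exon bases are also exon of Trim17, from which unstranded reads cannot be told apart. Hist1h2ac averaged 5.33 ± 2.06 CPM over the H2afy_KO pools and 5.29 ± 1.204 CPM over the H2afy_WT pools, and Hist1h2ae 3.59 ± 0.932 and 2.56 ± 0.842 CPM (SD, n = 4 each). Hist2h2ac was barely counted, with 3 to 16 counts per pool. The sum of the type was 21.2 ± 7.90 CPM over the H2afy_KO pools and 21.4 ± 4.68 CPM over the H2afy_WT pools (SD, n = 4 each).

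H2B genes held 28.8% of the counts, led by Hist2h2be. This gene (ENSMUSG00000068854, chromosome 3) stood at 29.4, 22.0, 16.9 and 24.7 CPM in H2afy_KO pools 1 to 4, against 18.6, 21.8, 17.5 and 19.6 CPM in H2afy_WT pools 1 to 4. The genotypes overlapped, with the lowest and the highest pool both in H2afy_KO (log2 fold change 0.26, SE 0.18, 95% interval -0.14 to 0.67). Hist1h2bg stood at 5.97, 3.31, 8.67 and 14.5 CPM in H2afy_KO pools 1 to 4, against 7.29, 5.93, 4.60 and 9.17 CPM in H2afy_WT pools 1 to 4, again with overlap. Hist1h2bc, Hist1h2bj and Hist1h2bm averaged 2.62 to 4.88 CPM in H2afy_KO and 2.65 to 5.17 CPM in H2afy_WT, and their log2 fold changes lay between -0.09 and 0.23. The type summed to 47.9 ± 6.71 CPM over the H2afy_KO pools and 42.2 ± 4.44 CPM over the H2afy_WT pools (SD, n = 4 each).

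H3 was the type seen least, with 2.60% of the counts and 2 of 12 members tested. Hist1h3d stood at 1.43, 1.30, 3.21 and 3.67 CPM in H2afy_KO pools 1 to 4, against 2.67, 2.45, 2.09 and 2.74 CPM in H2afy_WT pools 1 to 4. The H2afy_WT pools lay inside the range of the H2afy_KO pools (log2 fold change -0.06, SE 0.39). The type summed to 4.31 ± 1.6 CPM over the H2afy_KO pools and 4.06 ± 0.698 CPM over the H2afy_WT pools (SD, n = 4 each).

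H4 genes held 16.4% of the counts. Hist2h4 stood at 4.13, 5.44, 17.6 and 15.3 CPM in H2afy_KO pools 1 to 4, against 7.16, 6.68, 7.24 and 10.97 CPM in H2afy_WT pools 1 to 4. As for Hist1h1c, H2afy_KO 3 and 4 stood above all other pools, while H2afy_KO 1 and 2 stood below all H2afy_WT pools (log2 fold change 0.40, SE 0.45, and -0.74 without H2afy_KO 3 and 4). Hist1h4d stood at 5.97, 2.35, 8.49 and 7.68 CPM in H2afy_KO pools 1 to 4, against 11.2, 2.68, 3.39 and 8.79 CPM in H2afy_WT pools 1 to 4. It spread over a wide range in both genotypes. Hist1h4i was even within H2afy_KO, at 5.07 ± 0.239 CPM over the H2afy_KO pools and 4.68 ± 1.01 CPM over the H2afy_WT pools (SD, n = 4 each; log2 fold change 0.12, SE 0.24). Hist4h4 averaged 2.11 ± 0.715 and 1.92 ± 0.613 CPM, and Hist1h4c 2.24 ± 0.436 and 1.67 ± 0.612 CPM, in the same order. The type summed to 28.1 ± 10.6 CPM over the H2afy_KO pools and 24.7 ± 6.23 CPM over the H2afy_WT pools (SD, n = 4 each).

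**Figure D3:**
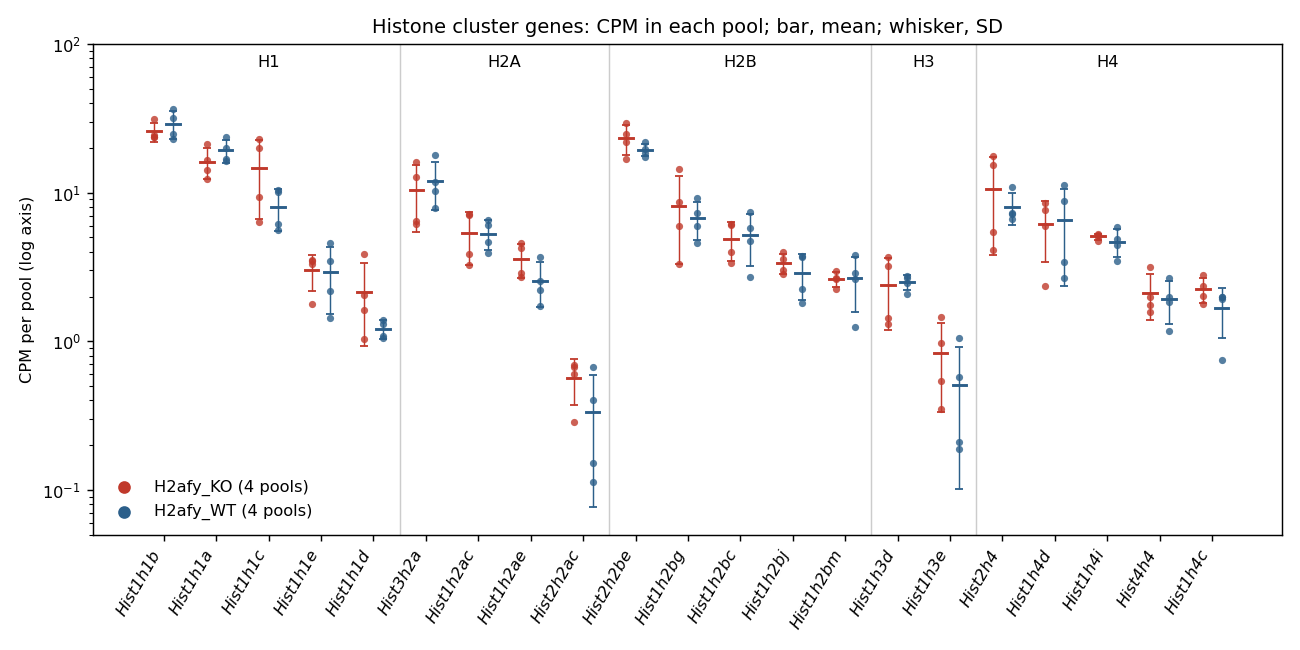
CPM in each pool (vertical log axis) of the 21 tested histone cluster genes with the highest levels of each type, up to 5 a type, H2afy_KO left of H2afy_WT for each gene. Points are pools, bars means and whiskers SD (n = 4 each). The genotypes overlap in every gene, and within H2afy_KO Hist1h1c spans 6.38 to 22.9 CPM and Hist2h4 4.13 to 17.6 CPM.

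The pools differed in a measure that crosses genotype. The share of immunoglobulin genes in all counts was 0.402%, 10.0%, 39.0% and 33.4% in H2afy_KO pools 1 to 4, against 3.47%, 0.948%, 19.5% and 12.9% in H2afy_WT pools 1 to 4. Relations of log2 CPM to this share were computed over the 8 pools for all 13722 genes, and again for the mean of the S phase list, with exact permutation p-values adjusted over the 13722 genes. Each relation covers both genotypes, and 4 pools of a genotype are too few for a value of its own. These relations were added after the values had been seen, and the 2 measures run against each other over the pools (r = -0.93), so they are not separate evidence.

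Hist1h1a was lower in pools with a larger immunoglobulin share, without passing the adjusted threshold (Pearson r = -0.92, exact permutation p = 0.00119, adjusted to 0.0507, and Spearman rho = -0.86 with an exact permutation p = 0.0107, adjusted to 0.162, n = 8). It was -0.77 when H2afy_KO 3 and 4, whose shares lie farthest from the median, were left out. The adjusted exact permutation p was 0.0497 for log2 of CPM plus 0.1, 0.0386 for CPM without immunoglobulin counts and 0.322 without H2afy_KO 3. These p-values exchange all 8 pools freely, although the share follows the replicate number, with the 4 highest shares in the pools numbered 3 and 4. With exchange only between same-numbered pools, which allows 16 arrangements and no p below 0.0625, the exact permutation p was 0.125 for Hist1h1a, 0.0625 for Hist1h1c and 0.1875 for Hist2h4. With the mean of the S phase list Hist1h1a had r = 0.91 (exact permutation p = 0.00164, adjusted 0.0612; rho = 0.90, exact permutation p = 0.00456, adjusted 0.110), and r = 0.91 without the 2 pools farthest from that median.

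Hist2h4 and Hist1h1c had relations of the opposite sign. For Hist2h4 and the immunoglobulin share, r was 0.87 (exact permutation p = 0.00623, adjusted 0.104; rho = 0.90, exact permutation p = 0.00456, adjusted 0.109), and 0.51 without H2afy_KO 3 and 4. For Hist1h1c, r was 0.80 (exact permutation p = 0.0210, adjusted 0.183; rho = 0.60, exact permutation p = 0.132, adjusted 0.471), and -0.01 without those pools, so this relation rests on them. In all, 0 of 27 members passed the adjusted threshold against 2.19% of all tested genes, and 3 of 27 had an unadjusted exact permutation p under 0.05 against 18.2%. With the S phase mean these were 0 of 27 against 1.29% and 3 of 27 against 19.1%.

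**Figure D4:**
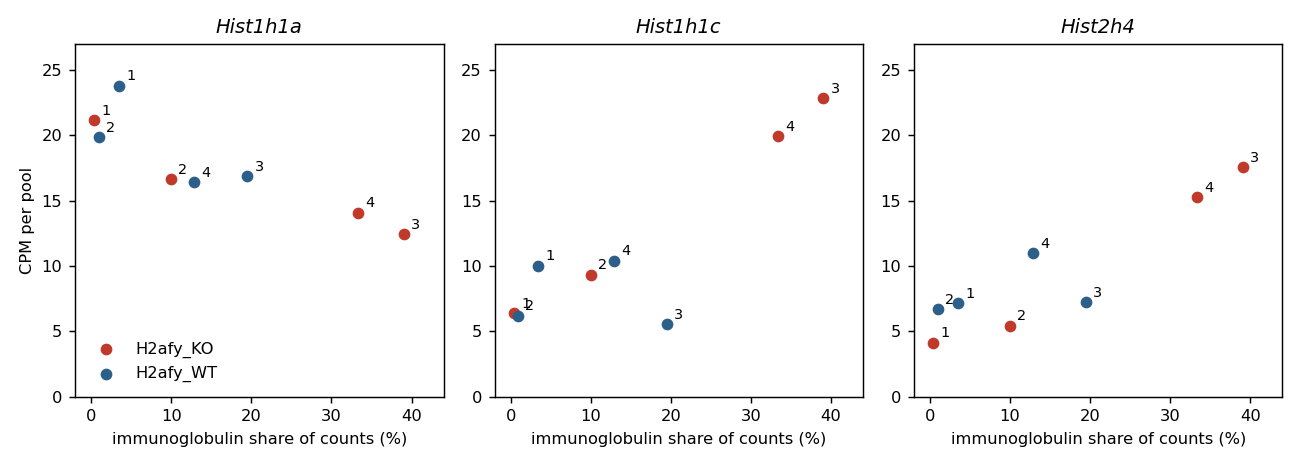
CPM (vertical axis, from 0) of Hist1h1a, Hist1h1c and Hist2h4 in each pool against the immunoglobulin share of counts in percent (horizontal axis), with points numbered by replicate and coloured by genotype. Hist1h1a is lowest, at 12.4 and 14.1 CPM, and Hist1h1c and Hist2h4 are highest in H2afy_KO 3 and 4, whose shares are 39.0% and 33.4%.

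By where the annotation ends, the members differed in these values as follows, given as a description. The 14 tested members annotated at least 100 bases past the stem-loop had a median r of 0.55 with the immunoglobulin share, and 13 of them were positive. Without H2afy_KO 3 and 4 that median was -0.0096, with 6 positive. The other 12 with a stem-loop had a median r of 0.23, and 8 of them were positive, against -0.13 and 4 without those pools. These medians and signs therefore rest on H2afy_KO 3 and 4. Over all tested genes the median r with all 8 pools was -0.02, and 48.9% were positive. The pools share depth and composition, members share reads where copies are alike, and fewer cells of a type cannot be told apart from less RNA per cell in such pools.

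In the H2A and H2B families, neighbouring genes often start back to back from one short interval. There were 13 such pairs, with 167 to 305 bases between the annotated starts. All 13 intervals held at least 2 CCAAT boxes (CCAAT, both strands), against 8.99% of intervals of 215 bases before other protein-coding genes. An ATTTGCAT octamer (both strands), the element that Oct-1 (Pou2f1) binds in H2B promoters, was in 6 of the 13 against 1.38%. Each pair interval lies between the starts of both its genes, whereas a background interval lies before a single gene. The lengths are not matched either, so these shares are a rough scale only. A match is a description of the letters and not of binding, and the pairs Hist1h2bq and Hist1h2ao, and Hist1h2ap and Hist1h2br, are near copies of each other. The intervals of the 3 pairs in which both genes were tested are shown, as they let partners with one shared start region be compared. They are on the plus strand of NCBIM37, with CCAAT boxes and octamers of either strand in capitals.
Hist1h2ae and Hist1h2bg (chr13:23663090-23663264): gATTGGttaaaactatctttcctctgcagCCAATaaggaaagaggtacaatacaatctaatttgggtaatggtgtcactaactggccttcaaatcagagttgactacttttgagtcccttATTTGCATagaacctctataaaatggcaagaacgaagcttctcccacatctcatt
Hist1h2ac and Hist1h2bc (chr13:23775818-23776067): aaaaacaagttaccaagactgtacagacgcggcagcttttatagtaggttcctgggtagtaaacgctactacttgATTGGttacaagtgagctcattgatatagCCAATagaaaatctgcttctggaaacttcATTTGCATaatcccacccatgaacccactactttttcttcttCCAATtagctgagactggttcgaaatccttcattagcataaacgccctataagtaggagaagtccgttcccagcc
Hist2h2ac and Hist2h2be (chr3:96024804-96025043): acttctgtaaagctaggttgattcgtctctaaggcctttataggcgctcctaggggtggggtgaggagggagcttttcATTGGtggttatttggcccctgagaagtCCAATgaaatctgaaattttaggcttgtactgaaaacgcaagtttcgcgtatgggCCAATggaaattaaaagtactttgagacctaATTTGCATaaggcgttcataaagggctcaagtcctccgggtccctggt

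In each of these 3 pairs the H2B gene was the higher partner per kilobase of exon, as in 9 of all 13 pairs. It was the lower one in the other 4, among them that of Hist3h2a and Hist3h2bb-ps, where the ratio was 0.085. Only 6 of the 13 pairs held a tested gene. The ratios of the remaining pairs rest on few counts, such as 2 for Hist1h2ba and 1 for Hist1h2aa over the 8 pools, so the tally over all 13 is weak. Hist1h2bg was at 13.1 CPM per kilobase in H2afy_KO and 10.9 in H2afy_WT, with its partner Hist1h2ae at 5.10 and 3.63. Hist1h2bc was at 6.63 CPM per kilobase in H2afy_KO and 7.02 in H2afy_WT, with Hist1h2ac at 2.15 and 2.13. Hist2h2be was at 8.88 CPM per kilobase in H2afy_KO and 7.40 in H2afy_WT, with Hist2h2ac at 1.09 and 0.644. Over the 8 pools the ratio of the H2B to the H2A partner was 2.75, 3.19 and 9.40 in these pairs. The middle one rests on annotated exon lengths, since Hist1h2bc with 736 bases had 1001 counts and Hist1h2ac with 2482 bases had 1042. The last one rests on 86 counts of Hist2h2ac over the 8 pools, against 4362 of Hist2h2be. Uniqueness differed within pairs too (50.3% in Hist1h2bg and 56.8% in Hist1h2ae, 49.2% and 88.4% in Hist1h2bc and Hist1h2ac, 99.2% and 61.4% in Hist2h2be and Hist2h2ac), and its part in these ratios was not tested.

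The factors that act on histone mRNAs were measured well in every pool. Of 30 listed genes for their transcription and 3′ end processing, all 30 were tested, 0 were higher and 0 lower, and the median log2 fold change was -0.03. Slbp, which binds the stem-loop, averaged 167 ± 13.4 CPM over the H2afy_KO pools and 172 ± 17.8 CPM over the H2afy_WT pools (SD, n = 4 each; log2 fold change -0.04, SE 0.12). Npat, the coactivator of histone genes that cyclin E and Cdk2 act on, averaged 69.4 ± 9.24 and 71.6 ± 5.94 CPM, and Casp8ap2 (FLASH), which joins it in histone locus bodies, 110 ± 9.003 and 121 ± 11.7 CPM. Hinfp, a factor of H4 promoters, had a log2 fold change of -0.18 (SE 0.20). The U7 snRNP proteins Lsm10 and Lsm11, which take part in cutting the 3′ end, had log2 fold changes of 0.02 (SE 0.14) and 0.08 (SE 0.28). The smallest p-values of the list were those of Snrpb (log2 fold change 0.34, SE 0.15, edgeR adjusted p = 0.633) and Mif4gd (SLIP1, 0.48, SE 0.28, adjusted p = 0.723).

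Of the genes of S phase, 0 of 33 tested passed in either direction, with a median log2 fold change of -0.15 and 26 negative. Asf1b, a chaperone that hands new H3 and H4 to chromatin assembly, was at -0.56 (SE 0.20, edgeR adjusted p = 0.527), and Rrm2, a ribonucleotide reductase subunit, at -0.44 (SE 0.20). Of 20 mitosis genes 0 passed, with a median of -0.29 and all 20 negative, among them Cdk1 at -0.42 (SE 0.15) and Ccnb1 at -0.46 (SE 0.19). Both were lowest in H2afy_KO 3 and 4, the pools richest in immunoglobulin counts. Cdk1 had 121 and 143 CPM there against 187 and 164 CPM in H2afy_KO 1 and 2, and Ccnb1 99.6 and 123 against 157 and 165 CPM. How far the medians of the S phase and mitosis lists rest on those pools was not tested. Of 10 histone genes outside the clusters 9 were tested and 0 passed. H3f3b, H3f3a, H2afz, H2afx and Cenpa (the centromeric H3) had log2 fold changes of 0.01 (SE 0.13), -0.08 (SE 0.18), -0.23 (SE 0.21), 0.02 (SE 0.26) and -0.33 (SE 0.17).

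Markers gave the following summed levels. The 12 progenitor markers, among them Il7r, Flt3 and Dntt, summed to 6548 to 8309 CPM in H2afy_KO and 9058 to 11274 CPM in H2afy_WT. Much of this was Dntt, at 3298 to 5067 CPM in H2afy_KO and 5010 to 6235 CPM in H2afy_WT. The geometric mean over the 12 was 125 to 424 CPM in the pools, so markers of the labelled cell type were counted in every pool. Of them 0 passed, with a median log2 fold change of -0.75, and 1 passed with the replicate block (Rag1, edgeR adjusted p = 0.0467). DESeq2 called 2 of them, Rag1 and Ebf1, and in the lists below Pf4 (lower), Cox6a2 and Bst2 (both higher). The 9 mature B and plasma cell markers ranged from 109 to 19780 CPM in H2afy_KO and from 384 to 8840 CPM in H2afy_WT (0 passed, median 1.27). Their geometric mean was 3.02 to 50.9 CPM in the pools, so the largest sums rest on few of these markers. Granulocyte and monocyte markers (9 tested, median -0.49) gave 806 to 3730 and 1163 to 5861 CPM, and erythroid and megakaryocyte markers (7 of 8 tested, Epor too low, median -1.52) 3.37 to 15.3 and 3.02 to 55.9 CPM. T and natural killer markers (6 of 8 tested, Cd3e and Cd3d too low, median -0.34) gave 425 to 813 and 675 to 749 CPM, and plasmacytoid dendritic markers (4 tested, median 0.50) 413 to 629 and 304 to 563 CPM. None of these lists had a member past the adjusted threshold in the edgeR fit without the block. The part of other cells in the levels of Hist1h1c and Hist2h4 was not tested.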

How the data were processed

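For each of 8 pools the authors deposited raw counts by Ensembl ID, with no normalization. The submitters' processing notes name HISAT2 (2.0.6) and mm9. The counter, its annotation and its strand setting were not given in the sources used here, and cDNA kits of this kind usually do not mark strand. GENCODE M1 named 37205 of the 37991 gene IDs. The members and lists were chosen with earlier results of these data known.

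The test was edgeR (4.0.16, R 4.3.3) quasi-likelihood with TMM factors, filterByExpr (minimum count 10), robust fitting and Benjamini-Hochberg adjustment at 0.05. An SE is the absolute log2 fold change over the square root of F. Intervals cover the spread between pools, and limits for 0 counts cover counting error only. Alternatives included DESeq2 (1.42.0). The steps were tested on simulated data. No sample repeated another (chi-square of 92.2 or more per degree of freedom in all 28 pairs).

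The 21 named members were the up to 5 of each type with the highest mean CPM, with any past a threshold. Of other lists, those past it or the 2 of smallest p were named, besides a fixed set, and marker lists are given as sums. Replicate numbers are shared between the groups. Deviations from group means correlated between same-numbered pools at r = 0.19, 0.19, 0.36 and 0.41 across genes. These were not compared with differently numbered pools, so they do not show that the numbers mark pairs. The main edgeR fit did not use the numbers, and the fits with the replicate block are given beside it. Protein sequences were not used here.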

Additional observations from a re-analysis of the deposited data

Results flagged for a closer look

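In 5 of 52 groups of 4 pools tested (21 genes and 5 type sums, each in both genotypes), 1 pool stood far from the other 3, with a gap to its nearest neighbour that took most of the range of the group. The nominal rate of this rule is about 5% for independent groups with normal values. These groups are not independent, since the type sums contain the genes, so that rate is a rough scale only. Hist1h1b had 31.5 CPM in H2afy_KO 1, above the other H2afy_KO pools. Hist1h1e had 1.78 CPM in H2afy_KO 2, below the other H2afy_KO pools, and the H1 sum of 52.6 CPM there was also the lowest of H2afy_KO. H2afy_WT 2 was lower in both, at 1.43 and 52.3 CPM, and H2afy_WT 3 had an H1 sum of 50.5 CPM. Hist2h4 had 10.97 CPM in H2afy_WT 4, above the other H2afy_WT pools, and Hist1h4c had 0.751 CPM in H2afy_WT 4, below them.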

How the results depend on the processing

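Histone cluster genes called were 0 in both directions under every setting run. Over all tested genes, 0 were higher and 0 lower in the edgeR fit. DESeq2 called 48 higher and 78 lower, edgeR with no filter 7 and 9, a floor of 5 CPM in 4 pools gave 2 lower, and leaving immunoglobulin genes out gave 3 lower. With each pool left out in turn the count of lower genes was 0 to 1, with 1 without H2afy_KO 4. With the replicate block edgeR called 4 higher and 11 lower, and DESeq2 with the block 249 and 236. Apart from Rag1, the block changed no call named in the text, and the adjusted p of the relation of Hist1h1a to the immunoglobulin share was 0.506 with exchange within replicate numbers. The members' median log2 fold change of 0.14 was -0.048 with the immunoglobulin share as covariate, -0.12 without H2afy_KO 3 and 4, and 0.07 to 0.29 with each pool left out. The cause of these shifts was not tested.

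No member's log2 fold change passed, and 13 of 21 changed sign under some setting. Hist1h2ac was -0.0008 with DESeq2, -0.0017 with no filter and -0.052 with the replicate block in edgeR and -0.053 in DESeq2. Hist1h2bm was 0.074 with the block in edgeR, 0.070 in DESeq2 and 0.0009 without immunoglobulin genes. With the immunoglobulin share as covariate, the log2 fold change was -0.048 for Hist1h1e, -0.35 for Hist1h2ac, -0.16 for Hist1h2bg, 0.081 for Hist1h2bm, -0.45 for Hist2h4 and -0.026 for Hist4h4. Without H2afy_KO 3 and 4 it was -0.025 for Hist1h1c, -0.19 for Hist1h1e, -0.56 for Hist1h2ac, -0.53 for Hist1h2bg, 0.10 for Hist1h2bm, -0.17 for Hist1h3e, -0.74 for Hist2h4 and -0.20 for Hist4h4. With 1 pool left out at a time it ran from -0.19 to 0.34 for Hist1h1e, -0.50 to 0.057 for Hist3h2a, -0.17 to 0.18 for Hist1h2ac, -0.18 to 0.52 for Hist1h2bg, -0.30 to 0.13 for Hist1h2bc, -0.25 to 0.21 for Hist1h2bm, -0.34 to 0.15 for Hist1h3d, -0.35 to 0.29 for Hist1h4d, -0.007 to 0.24 for Hist1h4i and -0.12 to 0.32 for Hist4h4. Low counts limit these values, with 3 to 16 counts per pool for Hist2h2ac.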
